A study of Mus musculus with 8 samples.

Results

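A set of 9 genes whose expression was highest in type A1 spermatogonia is described here, out of 5736 genes in the expression table. The genes are *Foxn4*, *Fbxo2*, *S100a6*, *C3*, *Tcerg1l*, *Lsp1*, *Slc4a3*, *Hoxb13* and *Spp1*. They were chosen by their FPKM, the fragments per kilobase of exon after scaling by library size, which was highest in A1 and lower in both undifferentiated Aal spermatogonia and later A3 spermatogonia. The level in A1 relative to the other 2 stages is therefore given below as a description, without a test. A mean highest in A1 was found for 1409 of the 5736 genes (24.6%).

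The data are bulk RNA-seq of 8 libraries from mouse germ cells sorted by fluorescence, with 2 libraries of Aal, 3 of A1 and 3 of A3 spermatogonia. All mice carried a *Uchl1-eGfp* transgene, in which the *Uchl1* promoter drives EGFP, and came from a C57BL/6 line outcrossed to CD-1. All 3 stages come from 1 synchronization scheme, in which bis-(dichloroacetyl)-diamine, an inhibitor of retinoic acid (RA) synthesis, was fed at 100 µg per g of body weight from postnatal day 1 through day 10. On day 11, RA given once under the skin (10 µl at 10 µg/µl) then started differentiation. Aal spermatogonia fill the testis at day 11 in this scheme, A1 spermatogonia are present 24 hours after RA, and A3 spermatogonia follow later. The age at which the A3 cells were collected was not given in the labels. Testes of at least 5 pups of a litter were pooled for a cell suspension, and the libraries of a stage came from independent cell preparations, so that the error measures the spread between pools. Because the stages differ in age as well as in time after RA, these cannot be told apart. In bulk samples, fewer cells of a type and less RNA per cell cannot be told apart either.

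Spermatogonial differentiation begins when RA, a vitamin A derivative that acts through nuclear receptors on DNA, pushes undifferentiated progenitors into a series of mitotic divisions that ends in meiosis. A1 is the first generation of that series and A3 is a later one. The 9 genes belong to no single pathway. They encode transcriptional regulators (*Foxn4*, *Hoxb13*, *Tcerg1l*), intracellular proteins for ubiquitin ligation, calcium binding and actin binding (*Fbxo2*, *S100a6*, *Lsp1*), a membrane anion exchanger (*Slc4a3*) and secreted proteins (*C3*, *Spp1*).

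Promoter sequences are shown first, for genes that move together across stages but differ in the base composition at their start sites. RefSeq promoter windows on GRCm38.p6, from 250 bases before to 50 after the annotated start, were matched for 7 of the 9 genes, and *Lsp1* and *Hoxb13* had no match. *Spp1* had 2 windows. GC content was 65.3% for *Foxn4*, 69.0% for *Fbxo2*, 73.0% for *Tcerg1l* and 71.7% for *Slc4a3*. The promoters of *S100a6* (49.3%), *C3* (53.3%) and *Spp1* (45.3% and 36.7%) were poorer in GC. Over all 32851 promoter windows the median was 52.7%, with quartiles at 45.7% and 61.7%, so that the first group lay above the upper quartile. The same 4 promoters held 22, 21, 35 and 28 CpG dinucleotides in that order, against a median of 7 over all windows, whereas *C3* and each *Spp1* window held 3 and *S100a6* held 6. A pair of GC-rich and a pair of GC-poor promoters are printed 5′ to 3′ on the strand of the gene, as the 250 bases that precede the start. Capitals mark matches to a GC box (GGGCGG, or CCGCCC on the other strand), a TATA box (TATAAA) and a retinoid receptor recognition site (AGGTCA). The *Foxn4* window lies on the minus strand at chr5:114273762-114274011, that of *Slc4a3* on the plus strand at chr1:75546212-75546461, that of *C3* on the minus strand at chr17:57228137-57228386 and that of *Spp1* on the plus strand at chr5:104434861-104435110.
Foxn4: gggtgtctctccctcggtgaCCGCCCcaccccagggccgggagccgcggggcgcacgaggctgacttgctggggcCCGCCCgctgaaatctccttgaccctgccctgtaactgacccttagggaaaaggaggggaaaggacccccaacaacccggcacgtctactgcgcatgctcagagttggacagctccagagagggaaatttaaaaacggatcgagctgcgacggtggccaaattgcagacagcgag
Slc4a3: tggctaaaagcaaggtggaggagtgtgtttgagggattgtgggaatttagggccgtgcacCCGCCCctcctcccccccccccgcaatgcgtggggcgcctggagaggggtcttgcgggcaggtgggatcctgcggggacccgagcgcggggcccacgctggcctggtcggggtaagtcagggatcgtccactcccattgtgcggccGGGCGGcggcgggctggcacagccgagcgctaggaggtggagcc
C3: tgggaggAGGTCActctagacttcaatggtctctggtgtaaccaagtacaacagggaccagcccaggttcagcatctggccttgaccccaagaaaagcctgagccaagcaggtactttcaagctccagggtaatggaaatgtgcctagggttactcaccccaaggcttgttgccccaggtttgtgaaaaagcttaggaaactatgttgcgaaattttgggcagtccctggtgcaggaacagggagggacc
Spp1: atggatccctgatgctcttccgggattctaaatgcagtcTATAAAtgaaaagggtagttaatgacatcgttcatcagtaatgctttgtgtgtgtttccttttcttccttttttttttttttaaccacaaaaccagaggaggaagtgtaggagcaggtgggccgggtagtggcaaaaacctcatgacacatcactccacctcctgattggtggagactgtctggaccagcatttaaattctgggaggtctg

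Motifs were searched on both strands over the full windows, and positions count from the start site. The GC box, a site bound by Sp family proteins, was present in *Foxn4*, *Fbxo2*, *Tcerg1l* and *Slc4a3*, which were also the 4 GC-rich windows, and in 35.7% of all windows. *Foxn4* held it at -230 to -225, at -175 to -170 and downstream of the start at 40 to 45. The recognition site AGGTCA, to which RA receptors bind when it is repeated, occurred in *C3* at -243 to -238 and in no other matched gene, against 16.3% of all windows. Direct repeats of that recognition site spaced by 2 or by 5 bases were found in none of the 7 genes and in 0.00913% of all windows for each spacing. The forkhead site GTAAACA was found in none of the 7 (3.65% of all windows). TTTATN, a short site read by posterior Hox proteins, was found in *S100a6*, *C3* and *Spp1* (39.9% of all windows). TATAAA was found in *C3* at 15 to 20 and in *Spp1* at -211 to -206 (13.6% of all windows), and in both it covered the same bases as a TTTATN match on the other strand. These matches describe letters in a window of 300 bases and no binding was measured.

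Library depth and cell content were checked before the levels were read. Between 18276164 and 27316451 reads were recovered per library, and the table accounted for 34.0% to 34.4% of them. *Uchl1* had a mean of 4860 FPKM in Aal, against 5460 and 5590 in A1 and A3. Of 14 germ cell markers listed, 4 were in the table, and *Dazl*, a defining germ cell RNA-binding protein, was between 303 and 437 FPKM in every library. Of the others, *Tex101* was between 129 and 203 FPKM, and *Uchl1* ran from 4050 in A1-3 to 7270 in A1-1. *Nanos3*, also a marker of undifferentiated spermatogonia, had means of 102, 15.5 and 14.9 FPKM in Aal, A1 and A3. Somatic cell markers were also present, and they stood highest in the third A1 library (A1-3) among the A1 libraries. The 9 Sertoli cell markers in the table, of 24 listed, summed to 57.6, 54.5 and 384 FPKM in A1-1, A1-2 and A1-3, against 38.3 to 49.9 in Aal and 200 to 373 in A3. The 6 interstitial fibroblast markers of 14 listed summed to 9.93, 6.48 and 50.2 FPKM in the same A1 libraries, and to 4.78 to 11 in all others. The 5 macrophage and leukocyte markers of 20 listed summed to 5.44, 3.81 and 15.3 FPKM in A1, and to 4.29 to 7.76 in the others. The 6 endothelial markers of 12 listed summed to 7.24 to 9.83 FPKM in A1, 9.03 to 10.5 in Aal and 3.9 to 4.91 in A3. No gene in the table was at 0. The sum of the 9 A1 peak genes was 55.9, 86.6 and 86.8 FPKM in A1-1, A1-2 and A1-3, in which *S100a6*, *C3*, *Tcerg1l*, *Lsp1* and *Spp1* were higher in A1-3 than in A1-2, and *Foxn4*, *Fbxo2*, *Slc4a3* and *Hoxb13* were higher in A1-2. *C3*, *Lsp1* and *Spp1* are also expressed by macrophages or other leukocytes, and these 3 were highest in A1-3. Of the macrophage and leukocyte markers in the table, *Csf1r*, *Lyz2* and *C1qb* were highest in the same library, whereas *Fcer1g* and *Aif1* were not. *Fcer1g* was at 3.74 FPKM in A1-3 and 5.81 in Aal-2, and *Aif1* was lowest in A1-3 at 1.06 FPKM. *Csf1r*, the receptor that defines macrophages, was at 0.847 FPKM in A1-3 and at 0.203 or less elsewhere. *Lyz2* was at 8.28 FPKM in A1-3 and between 0.169 and 1.2 elsewhere, and *C1qb* was at 1.34 FPKM in A1-3 and between 0.117 and 0.675 elsewhere. In A1-1 and A1-2 the macrophage and leukocyte sum was 5.44 and 3.81 FPKM, against 4.81 and 7.76 in Aal. The part of somatic cells in the levels of the 9 genes was not tested. The 11 markers of undifferentiated spermatogonia in the table, of 21 listed, summed to 165, 129 and 108 FPKM in A1-1, A1-2 and A1-3, against 398 and 447 in Aal and 101 to 111 in A3, so that A1-1 was the highest A1 library for them. The 9 A1 peak genes summed to 12.7 and 11.6 FPKM in Aal and to 19.5, 23.6 and 24.6 FPKM in A3.

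**Figure D1:**
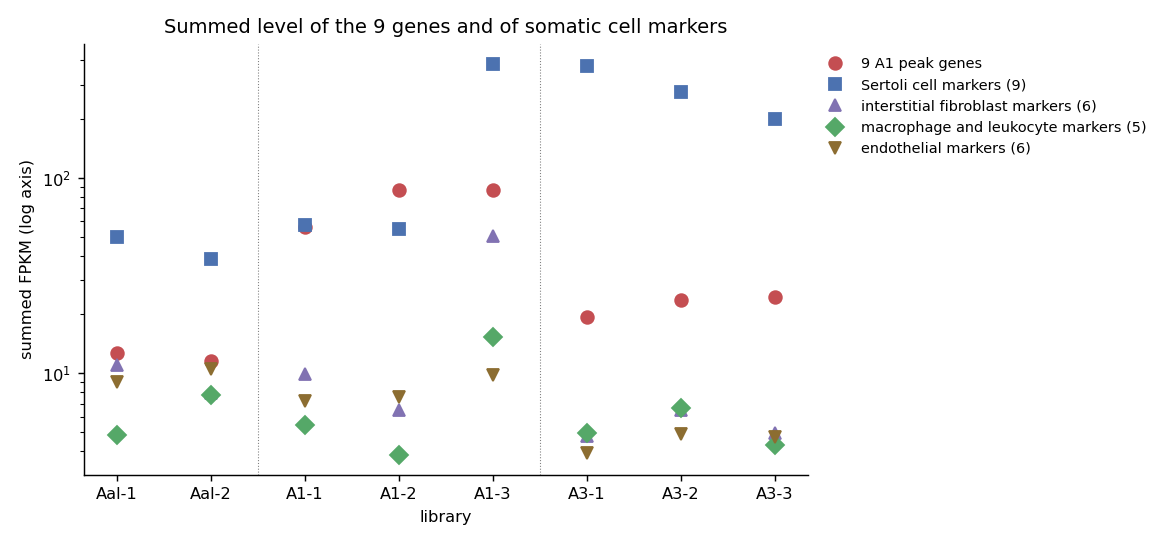
Summed FPKM on a log axis for each of the 8 libraries, for the 9 A1 peak genes and for markers of 4 somatic cell types (number of genes in brackets). The 9 genes sum to 55.9, 86.6 and 86.8 in A1-1, A1-2 and A1-3, and the Sertoli cell markers to 57.6, 54.5 and 384.

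*Foxn4* encodes a forkhead transcription factor that directs the choice of interneuron types in retina and spinal cord and lies on chromosome 5 (114704173 to 114723816, minus strand, mm9). It measured 0.293 and 0.577 FPKM in Aal, 13.6, 22.0 and 20.9 FPKM in A1, and 2.93, 3.46 and 3.75 FPKM in A3. The 3 stages did not overlap, in the order Aal, A3, A1. Its means were 0.435 ± 0.201 (SD, n = 2), 18.8 ± 4.56 (SD, n = 3) and 3.38 ± 0.413 FPKM (SD, n = 3) in Aal, A1 and A3. The A1 mean was 43.3 times the Aal mean and 5.57 times the A3 mean, and on the log2(FPKM + 1) scale no gene in the table stood further above both other stages. The Aal values rest on 21 and 43 reads, and the A1 values on 862 to 1781 reads. In Aal 13.5% of all genes had a lower mean than *Foxn4*, and in A1 73.3% did.

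*Hoxb13* is the most posterior gene of the Hoxb cluster and patterns the tail end of the body axis and the prostate. It lies on chromosome 11 (96055630 to 96058761, plus strand, mm9). Levels were 1.64 and 1.49 FPKM in Aal, 3.96, 6.19 and 5.38 FPKM in A1, and 1.17, 1.4 and 1.36 FPKM in A3. The A1 libraries were at least 2.41 times any other library, and every A3 library was below both Aal libraries. Means were 1.56 ± 0.109 (SD, n = 2), 5.17 ± 1.13 (SD, n = 3) and 1.31 ± 0.124 FPKM (SD, n = 3) in Aal, A1 and A3, which made A1 3.31 times Aal and 3.96 times A3.

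*Tcerg1l* encodes a protein named for transcription elongation, whose role is not well known. It lies on chromosome 7 (145400657 to 145589413, minus strand, mm9). Its levels were 0.532 and 0.465 FPKM in Aal, 2.95, 3.56 and 3.66 FPKM in A1, and 0.822, 0.819 and 0.601 FPKM in A3. Aal, A3 and A1 followed each other without overlap, with A1 set well apart and A3 close to Aal. The A1 mean of 3.39 ± 0.385 FPKM (SD, n = 3) was 6.81 times the Aal mean of 0.498 ± 0.0472 (SD, n = 2) and 4.54 times the A3 mean of 0.747 ± 0.126 (SD, n = 3). Read numbers were 30 to 47 in Aal and A3 and 162 to 250 in A1.

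*Fbxo2* encodes the F-box subunit by which an SCF ubiquitin ligase recognizes glycoproteins with N-linked sugars. It lies on chromosome 4 (147534730 to 147540533, plus strand, mm9). Levels were 0.772 and 1.00 FPKM in Aal, 6.49, 11.3 and 9.36 FPKM in A1, and 3.64, 1.89 and 2.98 FPKM in A3. The stages did not overlap, and A3 lay between Aal and A1. Means were 0.886 ± 0.162 (SD, n = 2), 9.04 ± 2.41 (SD, n = 3) and 2.84 ± 0.885 FPKM (SD, n = 3) in Aal, A1 and A3, so that A1 was 10.2 times Aal and 3.19 times A3.

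*S100a6* encodes calcyclin, a small calcium-binding protein of the S100 family, and lies on chromosome 3 (90416816 to 90418336, plus strand, mm9). Levels were 1.21 and 0.72 FPKM in Aal, 2.28, 4.43 and 4.95 FPKM in A1, and 1.03, 0.311 and 0.551 FPKM in A3. Aal and A3 overlapped, and A1 lay above both. The means of 0.965 ± 0.346 (SD, n = 2), 3.89 ± 1.41 (SD, n = 3) and 0.63 ± 0.365 FPKM (SD, n = 3) put A1 4.03 times above Aal and 6.17 times above A3. Its transcript is the shortest of the 9 (719 bases of exon) and its A3 values rest on 14, 5 and 10 reads. With 5 reads the counting interval (95%, exact Poisson, counting error only) ran from 0.101 to 0.726 FPKM.

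*Lsp1* encodes an actin-binding protein first known from leukocytes. It lies on chromosome 7 (149646714 to 149680772, plus strand, mm9) and overlaps Gm14492 on the other strand. Since it is not stated whether counting used strand, reads of the 2 genes may not be told apart. Levels were 1.94 and 1.59 FPKM in Aal, 6.0, 8.09 and 8.55 FPKM in A1, and 1.86, 3.42 and 3.01 FPKM in A3. Aal and A3 overlapped, since A3-1 fell between the Aal libraries. The A1 mean of 7.55 ± 1.36 FPKM (SD, n = 3) was 4.28 times the Aal mean of 1.76 ± 0.247 (SD, n = 2) and 2.73 times the A3 mean of 2.76 ± 0.805 (SD, n = 3).

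*Slc4a3* encodes anion exchanger AE3, which swaps chloride for bicarbonate across the plasma membrane, and lies on chromosome 1 (75542841 to 75558747, plus strand, mm9). Its levels were 4.65 and 4.31 FPKM in Aal, 8.26, 12.0 and 11.4 FPKM in A1, and 4.11, 4.04 and 4.12 FPKM in A3. It had the highest Aal level of the 9 genes and the smallest ratio of A1 to Aal. A1 (10.6 ± 2.02 FPKM, SD, n = 3) was 2.36 times Aal (4.48 ± 0.24, SD, n = 2) and 2.58 times A3 (4.09 ± 0.044, SD, n = 3).

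*C3* encodes the central component of the complement cascade, a plasma protein that is cleaved to tag surfaces for phagocytosis. It lies on chromosome 17 (57343397 to 57367559, minus strand, mm9). Levels were 0.967 and 0.922 FPKM in Aal, 5.99, 6.65 and 7.14 FPKM in A1, and 0.924, 1.92 and 2.2 FPKM in A3. The A1 libraries of *C3* varied least among themselves of the 9 genes relative to their mean, and A3-1 lay at the Aal level. Means were 0.945 ± 0.0316 (SD, n = 2), 6.59 ± 0.581 (SD, n = 3) and 1.68 ± 0.671 FPKM (SD, n = 3), so that A1 was 6.98 times Aal and 3.92 times A3.

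*Spp1* encodes osteopontin, a secreted phosphoprotein that binds integrins and CD44, and lies on chromosome 5 (104864137 to 104870069, plus strand, mm9). Levels were 0.674 and 0.504 FPKM in Aal, 6.38, 12.5 and 15.4 FPKM in A1, and 3.06, 6.34 and 5.99 FPKM in A3. The lowest A1 library was only 1.01 times the highest A3 library, so that A1 and A3 nearly touched. The A1 mean of 11.4 ± 4.6 FPKM (SD, n = 3) was 19.4 times the Aal mean of 0.589 ± 0.12 (SD, n = 2) and 2.22 times the A3 mean of 5.13 ± 1.81 (SD, n = 3).

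**Figure D2:**
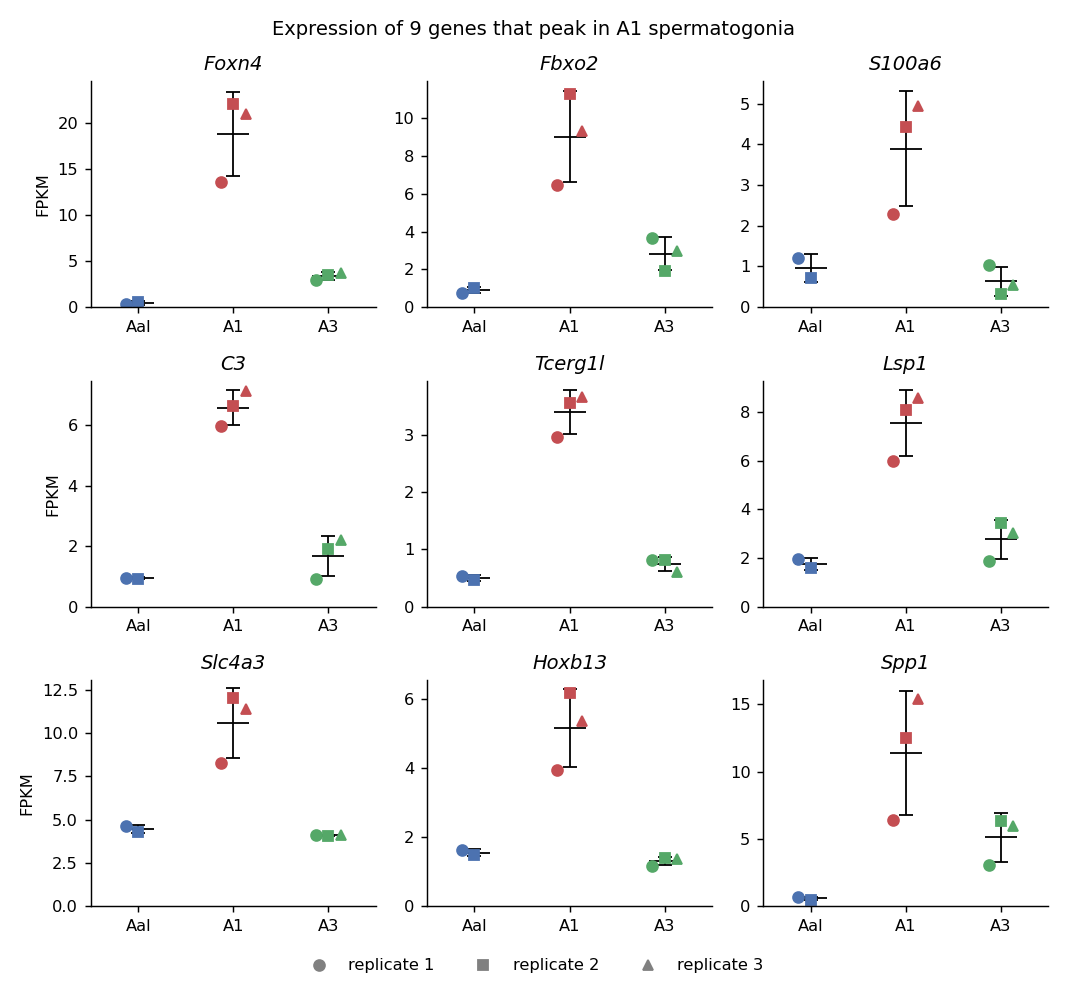
FPKM of each of the 9 genes in the 2 Aal, 3 A1 and 3 A3 libraries, with 1 symbol per library, a horizontal line at the mean of the stage and bars of 1 SD. Every A1 library lies above every other library, for *Spp1* by a ratio of only 1.01 (6.38 against 6.34 FPKM).

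As differences of log2(FPKM + 1), A1 exceeded Aal by 3.77 for *Foxn4*, 2.89 for *Spp1*, 2.39 for *Fbxo2*, 1.96 for *C3*, 1.62 for *Lsp1*, 1.55 for *Tcerg1l*, 1.28 for *S100a6*, 1.25 for *Hoxb13* and 1.06 for *Slc4a3*. A gene was called where limma gave an adjusted p of at most 0.01 and the difference exceeded 1. All 9 genes were called higher, where 4.19% of the 4632 genes tested were called higher and 9.15% in either direction, but the rule used this comparison and nothing is read from the count. It was 9 without A1-3, 4 without Aal-2 and 6 without Aal-1, the last 2 being fits in which the lone Aal library is assumed to vary like A1. From A1 to A3 the difference was -2.15 for *Foxn4*, -1.56 for *S100a6*, -1.53 for *C3*, -1.40 for *Hoxb13*, -1.39 for *Fbxo2*, -1.33 for *Tcerg1l*, -1.19 for *Lsp1*, -1.17 for *Slc4a3* and -0.99 for *Spp1*. Of the 9, 8 were called lower, all but *Spp1*, where 1.02% of the 4590 genes tested were called lower and 1.5% in either direction. The rule used the direction of this comparison too, and nothing is read from the count. That count was 6 without A1-3, 3 without A1-2, 2 without A3-2 and 3 without A3-3. Of 4439 genes tested in both comparisons, 9 were called higher in A1 than Aal and lower in A3 than A1 (0.203%): these 8 and *Cyp26a1*.

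The height of the peak can be given as the smaller of the 2 differences between A1 and the other stages. By this measure *Foxn4* ranked 1 in the table at 2.15, *C3* ranked 2 at 1.53 and *Fbxo2* ranked 3 at 1.39, and *Spp1*, the lowest of the 9, ranked 13 at 0.99. *Cdc25b*, a phosphatase that activates the mitotic cyclin-dependent kinase, stood just below *Spp1* and also at 0.99 after rounding, with means of 5.26 ± 0.129 FPKM in Aal (SD, n = 2), 11.4 ± 1.36 in A1 (SD, n = 3) and 4.55 ± 0.739 in A3 (SD, n = 3). Other genes with a mean of at least 5 FPKM in A1 and a high peak were *Dcn*, *Scd1*, *Glipr2* and *Dll1*. *Dcn*, an interstitial fibroblast marker, ranked 4 but measured 4.01, 1.76 and 27.4 FPKM in A1, so that its A1 mean rested on A1-3, and it overlapped Aal. None of the 9 genes had that shape. Every A1 library was above every other library for all 9, as for 5.89% of the 4789 genes that passed the filter on low values. Taken singly, an A1 group wholly above Aal was found for 34.6% of genes tested and an A3 group wholly below A1 for 20.1%.

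The rule did not use the order of the 3 A1 libraries, and in it the 9 genes were alike. A1-1 was the lowest A1 library for 9 of 9 genes. It was also the A1 library with the highest summed level of undifferentiated markers (165 FPKM, against 129 and 108), among them *Ret* at 30.1, 18 and 16.5 FPKM, *Nanos3* at 21.7, 12.6 and 12.2 FPKM and *Id4* at 9.67, 6.11 and 4.42 FPKM in A1-1, A1-2 and A1-3. Of the same markers, *Sox3* was highest in A1-2 (41.9, 47.0 and 33.0 FPKM) and *Pax7* was nearly level (1.3, 1.22 and 1.29 FPKM). The part of the undifferentiated markers in the order of the 9 genes was not tested. Among the 273 other genes with every A1 library above all others, A1-1 was lowest for 143 (52.4%), and among all genes at the filter for 35.3%. The level in A1-1 relative to the mean of A1-2 and A1-3 was 0.868 for *C3*, 0.817 for *Tcerg1l*, 0.721 for *Lsp1*, 0.705 for *Slc4a3*, 0.685 for *Hoxb13*, 0.634 for *Foxn4*, 0.629 for *Fbxo2*, 0.486 for *S100a6* and 0.458 for *Spp1*. The highest A1 library was A1-2 for 4 genes and A1-3 for 5. Within Aal, Aal-1 was higher than Aal-2 for 7 of 9 genes (55.3% of all genes), *Foxn4* and *Fbxo2* being the exceptions. The A3 libraries were split, and each of them was the highest for 3 genes. All 9 genes were read from the same libraries, so these counts describe a few libraries and not 9 independent events.

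The comparison of A3 with Aal was not fixed by the rule, which only placed both below A1, and it asks how much of the difference remained later in differentiation. Tested on log2(FPKM + 1) with limma and adjusted over 4687 genes, 2 of the 8 genes tested were called higher in A3, against 7.87% of all genes tested. *Tcerg1l* was below the filter in this comparison and was not tested. Both genes called, *Foxn4* and *Spp1*, were below 1 FPKM in both Aal libraries and passed the filter only through A3. A low A3 level would have left them untested, as for *Tcerg1l*, so the count and their p-values are a description. *C3* was likewise below 1 FPKM in both Aal libraries (0.967 and 0.922). *Fbxo2* and *S100a6* were below it in 1 Aal library (0.772 and 0.72 FPKM) and also needed A3 to pass. The p-values of these genes are a description too. *Foxn4* rose by 1.61 (95% interval 1.27 to 1.96, limma adjusted p = 6.77e-05), and its A3 mean was 7.78 times its Aal mean. *Spp1* rose by 1.9 (1.32 to 2.48, limma adjusted p = 0.000353), and its A3 mean was 8.71 times its Aal mean. Both had all 3 A3 libraries above both Aal libraries, as had *Fbxo2*, and 38.9% of all genes tested did. *Fbxo2* had a difference of 1.00 (0.53 to 1.47, limma adjusted p = 0.00326) and missed the fold threshold by less than the rounding shown, with an A3 mean 3.2 times the Aal mean. Without A3-2 its difference was 1.19 and it was called.

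For the other 5 genes tested, the interval of the difference between A3 and Aal included 0. The difference was 0.43 for *C3* (-0.06 to 0.92, limma adjusted p = 0.118) and 0.42 for *Lsp1* (-0.03 to 0.88, limma adjusted p = 0.0982). In both, A3-1 lay at or below the level of an Aal library and the other A3 libraries lay above both. The difference was -0.11 for *Slc4a3* (-0.38 to 0.17, limma adjusted p = 0.479) and -0.15 for *Hoxb13* (-0.44 to 0.14, limma adjusted p = 0.33). Both genes had every A3 library below both Aal libraries, as did 34.2% of all genes tested. These 2 intervals are the narrowest and leave room for a difference of less than 0.5 in either direction. For *S100a6* the difference was -0.28 (-0.74 to 0.18, limma adjusted p = 0.263) on few reads. The median of the 8 genes was 0.43, against 0.05 over all genes tested. Genes low in Aal entered only with a sufficient A3 level, so this median is a description. The Sertoli cell markers moved in the same direction as *Foxn4* and *Spp1* in this comparison, with 7 of 9 called higher in A3, and their part in these differences was not tested.

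**Figure D3:**
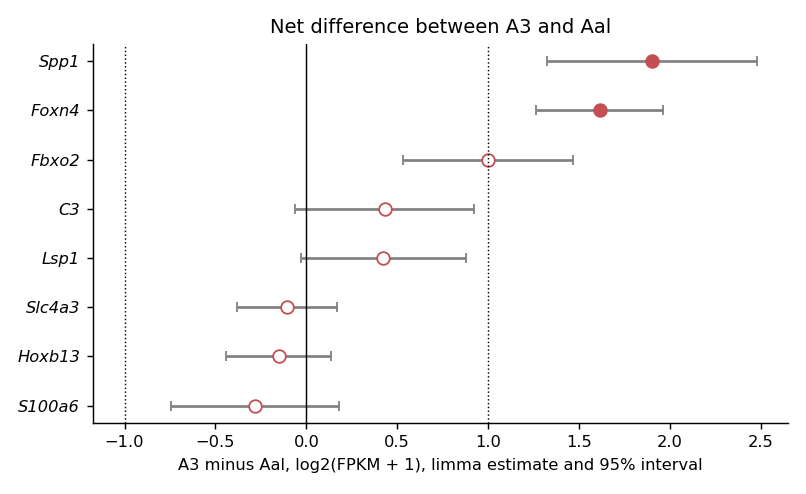
Difference between A3 and Aal in log2(FPKM + 1) for the 8 genes tested, with the limma 95% interval. Filled points were called and dotted lines mark the fold threshold, and the values run from -0.28 for *S100a6* to 1.9 for *Spp1*.

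The share of the rise from Aal to A1 that was still present in A3 ordered the genes, calculated from the FPKM means. It was 41.9% for *Spp1*, 23.9% for *Fbxo2*, 17.3% for *Lsp1*, 16% for *Foxn4*, 13% for *C3* and 8.59% for *Tcerg1l*. It was negative, meaning an A3 mean under the Aal mean, for *Slc4a3* (-6.46%), *Hoxb13* (-7.1%) and *S100a6* (-11.5%). Leaving out 1 library at a time, the share ran from 34.0% to 51.5% for *Spp1*, above the range of every other gene, and from 14% to 17.5% for *Foxn4*. The ranges of *Fbxo2* (19.0% to 29.7%) and *Lsp1* (11.6% to 25.1%) overlapped, as did those of *Lsp1*, *Foxn4* and *C3* (8.42% to 19.7%), so that the order among these neighbors was not resolved. Such ranges are not error intervals, so ranges that stay apart do not settle an order either. *Foxn4*, with the highest ratio of A1 to Aal, kept a smaller share than *Spp1* although both were called in A3 against Aal. For *Slc4a3* and *Hoxb13* every range stayed below 0 (-9.51% to -3.57% and -9.42% to -4.87%).

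Other genes of each family or pathway were counted from lists. Of 44 other Fox genes listed, 12 were in the table and 11 were tested in A1 against Aal, where the median difference was -0.25 (0.03 over all genes tested). *Foxm1*, a forkhead factor of the G2 and M phases, rose by 1.14 (limma adjusted p = 0.000136), from 34.9 ± 0.303 FPKM (SD, n = 2) to 78.2 ± 4.82 (SD, n = 3), and it was at 88.8 ± 1.42 FPKM (SD, n = 3) in A3. *Foxc2* fell by 1.28 and *Foxa2* by 1.19 (limma adjusted p = 0.00575 and 0.00133), where 4.97% of all genes tested were called lower. None of the 10 Fox genes tested was called between A1 and A3.

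*Foxn4* acts in the nervous system upstream of Notch signaling, and 6 of 20 listed Notch and neural genes were in the table. *Dll1*, a Notch ligand, measured 1.61 and 2.16 FPKM in Aal, 6.35, 8.3 and 6.96 in A1, and 2.06, 3.82 and 4.52 in A3. It rose in A1 by 1.51 (limma adjusted p = 0.000416), and its difference of -0.91 in A3 against A1 was not called (limma adjusted p = 0.0249). *Hes5*, a Notch target, measured 2.54 and 2.32 FPKM in Aal, 4.38, 5.29 and 3.78 in A1, and 1.16, 1.65 and 1.74 in A3. It was not called in A1 against Aal (0.67, limma adjusted p = 0.0108), and it fell by 1.12 in A3 against A1 (limma adjusted p = 0.00329). The medians of the list were 0.27 and 0.08 in these 2 comparisons, against 0.03 and 0.01 over all genes tested.

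Of 49 other Hox genes and cofactors listed, 10 were in the table, among them *Meis3*, which is a cofactor and not a Hox gene. Those tested were all Hox genes and had medians of -0.7 in A1 against Aal (6 genes), -0.51 in A3 against A1 (5 genes) and -1.29 in A3 against Aal (5 genes). Of the 10, 4 had their highest mean in A1, including *Meis3* (0.562 FPKM, against 0.543 in A3). *Hoxa3* was one of them, at 0.7 and 0.814 FPKM in Aal, 1.73, 2.22 and 1.79 in A1, and 0.81, 0.915 and 0.685 in A3. It differed by 0.73 between A1 and Aal and by -0.69 from A1 to A3 (limma adjusted p = 0.00481 and 0.00871), under the fold threshold. *Hoxa2*, with means of 0.171, 0.914 and 0.389 FPKM in Aal, A1 and A3, was too low to be tested. In the order of their stage means the other Hoxb genes in the table differed from *Hoxb13*. *Hoxb2*, *Hoxb3* and *Hoxb4*, anterior genes of the same cluster, were highest in Aal. *Hoxb3* measured 3.78 ± 0.382 FPKM in Aal (SD, n = 2), 1.52 ± 0.404 in A1 (SD, n = 3) and 0.534 ± 0.249 in A3 (SD, n = 3). In A3 against Aal, *Hoxb2* fell by 1.29, *Hoxb3* by 1.65 and *Hoxb4* by 1.29 (limma adjusted p = 6.77e-05, 8.68e-05 and 0.000146), where 9.69% of all genes tested were called lower. *Hoxb8* had its lowest mean in A1, with 1.73 ± 0.0609, 0.779 ± 0.166 and 1.35 ± 0.251 FPKM in Aal, A1 and A3, and was not called in any comparison.

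**Figure D4:**
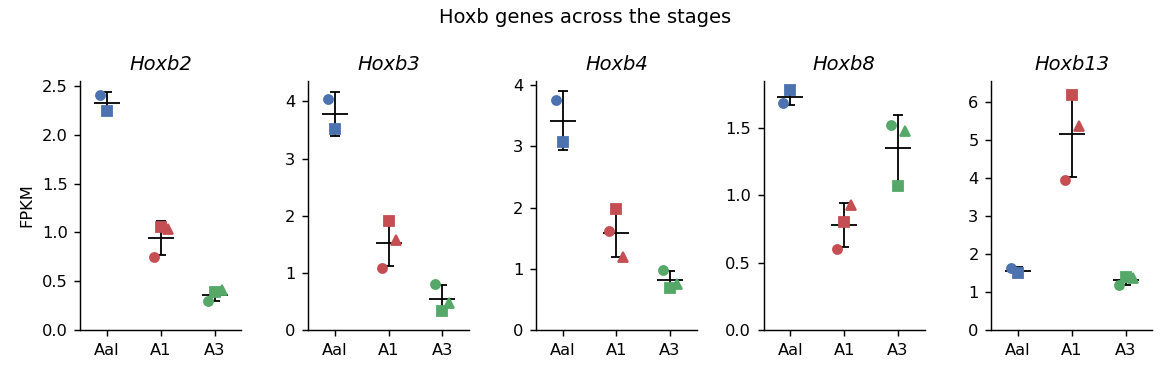
FPKM of 5 genes of the Hoxb cluster in the 2 Aal, 3 A1 and 3 A3 libraries, with 1 symbol per library, a line at the mean and bars of 1 SD. *Hoxb2*, *Hoxb3* and *Hoxb4* are highest in Aal, and *Hoxb13* is highest in A1 with a mean of 5.17 FPKM.

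Among F-box and SCF ligase genes (15 of 61 in the table), 13 were tested in A1 against Aal with a median of -0.05, and the single call was *Fbxo41*, which fell by 1.33 (limma adjusted p = 0.00042). *Fbxo6*, the close relative of *Fbxo2* that lies next to it, measured 7.62 ± 0.664 FPKM in Aal (SD, n = 2), 7.86 ± 1.45 in A1 (SD, n = 3) and 7.57 ± 0.958 in A3 (SD, n = 3). For the 6 of 22 S100 proteins and partners in the table, the medians were 0.71 for A1 against Aal and 0.07 for A3 against A1, with none called. In A3 against Aal, 3 of them were called higher, against 7.87% of all genes tested: *S100a11* (1.2), *Anxa2*, an annexin that binds S100 proteins (1.09), and *S100z* (1.18), whereas *S100a6* was not. *S100a11* measured 9.38, 6.76 and 22.8 FPKM in A1, highest in A1-3 like the somatic markers.

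Complement genes other than *C3* (17 of 50 in the table, 9 tested) had a median of 0.00 in A1 against Aal and none was called there or in A3 against A1 (median -0.12). In A3 against Aal, *Clu*, which is also a Sertoli cell marker, was called higher (2.94), and *Cd55* and *Cfp* were called lower (-1.41 and -1.0). Of 23 actin regulators of leukocytes listed beside *Lsp1*, 9 were in the table and 5 were tested, and *Arpc1b*, a subunit of the Arp2/3 complex, rose by 1.26 in A1 (limma adjusted p = 0.000245). It went on to 73.1 ± 2.68 FPKM in A3 (SD, n = 3) from 41.2 ± 2.93 in A1 (SD, n = 3). *Lcp1* and *Coro1a*, leukocyte actin-binding genes of that list, were at 2.32 and 3.05 FPKM in A1 and were not called. Transcription elongation genes, listed for *Tcerg1l*, had 16 of 41 in the table with medians of 0.06 and 0.01 and no call in A1 against Aal or A3 against A1. Bicarbonate and anion transport genes (15 of 44) likewise had none called in those comparisons, with medians of -0.13 and -0.01.

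For *Spp1*, 6 of 18 listed osteopontin receptors and related proteins were in the table. *Itga9*, an integrin chain that binds osteopontin, fell by 1.32 in A1 (limma adjusted p = 0.000571), from 4.77 ± 0.589 FPKM (SD, n = 2) to 1.32 ± 0.241 (SD, n = 3). *Tgm2*, a transglutaminase that crosslinks osteopontin and a known RA target, rose by 1.14 (limma adjusted p = 0.00283), from 0.703 ± 0.0211 (SD, n = 2) to 2.81 ± 0.81 FPKM (SD, n = 3). *Itgb3* had means of 8.71 ± 2.84 FPKM in Aal (SD, n = 2), 8.63 ± 0.734 in A1 (SD, n = 3) and 8.28 ± 0.691 in A3 (SD, n = 3). None of the 4 tested was called between A1 and A3.

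Because A1 follows the RA injection, RA response genes were set beside the 9 genes. Of 27 listed, 12 were in the table, and 6 of 9 tested were called higher in A1, against 4.19% of all genes tested, with a median of 1.69 against 0.03 over all genes. Among them were *Tbx1* (3.22), *Cyp26a1* (1.94), *Crabp1* (1.92), *Crabp2* (1.69) and *Tgm2* (1.14). *Cyp26a1* and *Tgm2* were below 1 FPKM in both Aal libraries, and *Tbx1* was at 0.388 FPKM in Aal-2. These genes passed the filter only with the A1 libraries, where they were high, so the count is a description. Only *Cyp26a1*, the enzyme that degrades RA, was also called lower in A3, by -1.30 (limma adjusted p = 0.000977), among the 8 tested there (median -0.02). It measured 0.465 and 0.201 FPKM in Aal, 3.52, 4.09 and 4.67 in A1, and 1.04, 0.98 and 1.18 in A3. *Tbx1* and *Crabp1* had higher means in A3 than in A1, with 34.7 against 16.4 FPKM and 376 against 312 FPKM. *Tgm2* and *Crabp2* had higher means in A1, with 2.81 against 1.4 FPKM and 8.32 against 6.99 FPKM in A3. Of the 12 in the table, 6 had their highest mean in A1, as had 24.6% of all genes. For 3 of the 12, every A1 library was above all others.

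The 9 profiles were also compared with all other genes by their Pearson correlation over the 8 libraries with the mean standardized profile of the 9. These values are descriptions, since the 9 genes were chosen for the pattern and all genes share the same libraries and depths. The 5 most similar genes with a mean of at least 5 FPKM in some stage were *Nol4l* (r = 0.977), *Prok2* (0.976), *Magea8* (0.975), *Aldoa* (0.97) and *Rec8* (0.968). *Rec8*, the meiotic cohesin subunit, had means of 10.3 ± 1.58 FPKM in Aal (SD, n = 2), 28.3 ± 4.19 in A1 (SD, n = 3) and 15.7 ± 1.2 in A3 (SD, n = 3). *Aldoa*, the glycolytic aldolase, had means of 92.1, 154 and 95.1 FPKM in the same order. *Prok2*, a secreted prokineticin, had means of 4.16, 10.8 and 6.04 FPKM, and *Nol4l* had 6.21, 16.8 and 9.09 FPKM. *Magea8* (8.58, 16.4 and 9.62 FPKM) belongs to a family of near-identical copies among which reads may be shared. Among the 9 genes themselves, r over the 8 libraries ran from 0.604 to 0.996 over 36 pairs, with a median of 0.918.

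Neighboring genes were examined for each locus on mm9. Within 200 kb of the 9 genes, 29 other genes were in the table. Of these, 3 (10.3%) had every A1 library above all others, against 5.89% of genes at the filter. Some of the 29, such as *Svop* and *Calcoco2*, did not pass that filter, so the 2 shares have unlike bases. The 3 genes were *Ilf2* near *S100a6*, *Dennd1c* near *C3* and *Des* near *Slc4a3*, with A1 means of 133, 2.06 and 1.35 FPKM, and none was called. The single neighbor called in A1 against Aal was *H19*, a noncoding RNA near *Lsp1*, at 24.9 FPKM in Aal and 51.0 in A1. From A1 to A3 *H19* differed by -0.06, unlike *Lsp1*. No neighbor was called between A1 and A3.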

How the data were processed

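Total RNA of sorted EGFP+ germ cells was made into stranded mRNA libraries and sequenced as single reads. Per the labels and the study's methods, the authors trimmed adapters with cutadapt 1.9, mapped them with STAR 2.5.2b against mm9 and counted them per gene by featureCounts. FPKM values were deposited, 1 column per library. The sources used here do not give the annotation, the strand setting or how counts became FPKM. Library totals and reads per gene were recovered from the FPKM values, which are whole multiples of what 1 read is worth. For all 5736 genes the values were rebuilt from whole reads within a relative tolerance of 1e-05.

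Groups were taken from sample titles. Each pair of stages was compared by limma 3.58.1 (R 4.3.3; lmFit and a trended eBayes) on log2(FPKM + 1), on genes with at least 1 FPKM in at least 2 libraries compared. Calls required a p of 0.01 or less after Benjamini-Hochberg adjustment and a difference of over 1 in size. Tests were two-sided, and differences on this scale understate changes of low genes. P-values measure the spread between cell preparations only.

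The members and gene lists were chosen with earlier results of these data known. Named genes are the 9 members, *Uchl1*, list genes called in A1 against Aal or A3 against A1 (up to 5 per list), the 5 most similar profiles, and the 5 other genes with the highest peak and at least 5 FPKM in A1. Others named, such as *Dazl*, *Lyz2*, *Hoxb2*, *Hoxa3*, *Fbxo6*, *Itgb3*, *Lcp1* and the locus neighbors, were chosen after their values were seen. A gene that met the naming rule is left out here. Positions come from GENCODE M1 on mm9. Replicates differed by a chi-square of 5.69 to 21.7 per gene, and every library counts as 1 sample. Alternatives were another pseudocount, other filters, 2 other scalings, changed thresholds, 1 fit to all 8 libraries, no trend, a replicate block, voom on recovered reads and leaving out each library.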

Additional observations from a re-analysis of the deposited data

How the results depend on the processing

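None of the differences of the 9 genes changed sign under any alternative run. The share of calls that were higher in A3 against A1 was 31.9%, and 55% without A1-3, 19.2% without A3-2 and 15.6% without A3-3. In A1 against Aal it was 45.8%, and 56.8% without Aal-1. The median of all genes in A1 against Aal moved from 0.034 to -0.011 with median-ratio scaling. With a pseudocount of 0.1, 670 genes in place of 424 were called in A1 against Aal, and 152 in place of 69 in A3 against A1. With no fold threshold the calls were 1252, 349 and 2048 in A1 against Aal, A3 against A1 and A3 against Aal. With voom on recovered reads, 731 and 199 genes were called in the first 2 comparisons. A filter at 5 FPKM left 538 calls in A3 against Aal, against 823, and 1 of the 9 genes called there in place of 2, since fewer genes were tested.

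The replicate numbers share only a number: A1 and A3 libraries of the same number had deviations from their stage means that correlated at -0.107, 0.022 and -0.323, and no A1 library correlated best with its own number. With a replicate block, 39 genes and 5 of the 9 were called in A3 against A1, and 444 and 800 genes in the other comparisons.

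Leaving out 1 library at a time, calls ran from 179 to 475 in A1 against Aal (4 to 9 of the 9 genes), from 26 to 111 in A3 against A1 (2 to 8 of the 9) and from 597 to 878 in A3 against Aal (2 to 3 of the 9). In A1 against Aal the count of 179 was without Aal-2. In A3 against A1 it was 32 without A1-2, 111 without A1-3, 107 without A3-1, 26 without A3-2 and 32 without A3-3. Of the values for single genes, 319 kept their side of the thresholds, 35 lost a call and 4 gained it. The 4 were all *Fbxo2* in A3 against Aal, at 1.54 with a pseudocount of 0.1, 1.04 with quantile normalization, 1.61 with voom and 1.19 without A3-2. Over all alternatives its limma adjusted p ran from 0.000898 to 0.0383.

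The precision is limited by 2 Aal libraries and by low counts, as for *S100a6* and *Tcerg1l*.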
